A study of Mus musculus with 8 samples.

Results

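The Notch receptors Notch1 and Notch2, the ligands Dll1, Dll4 and Jag1, the fringes Lfng and Mfng, the target genes Hes1 and Nrarp, and the Hes-family gene Hes6 were followed in organoids of mouse small intestine, cultured epithelium that keeps buds resembling crypts. These 10 genes were chosen by name, and all 10 were among the 19325 named genes measured. RNA was measured on 8 Agilent 2-colour arrays in 3 experiments, 6 of them carrying organoid RNA (the array's own RNA) against a control RNA and 2 carrying a control RNA in both colours (self-self arrays). The question of the comparisons was how the Notch genes differed when Ascl2, a stem cell transcription factor with a basic helix-loop-helix domain, or Tcf7l2, through which Wnt signals reach DNA, was changed.

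All cultures were pulsed for 16 h with 4OH-tamoxifen, which switches on the CreERT2 recombinase. In experiment 1, organoids transduced with an Ascl2 construct under a CMV promoter, with RNA taken after 24 h, were set against VillinCreERT2 organoids on 2 arrays, with the dyes swapped on replicate 2. In experiment 2, organoids labelled Ascl2 over expressing, Tcf7l2null, and Tcf7l2null with Ascl2 over expression were each set on 1 array against organoids transduced with dsGFP, a construct from which the same pulse induces GFP. In experiment 3, 1 array set Ascl2 null organoids against VillinCreERT2 organoids. The self-self arrays carried the dsGFP control of experiment 2 and the control of experiment 3, whose genotype field says VillinCreERT2 while its description gives Ascl2loxp/loxp. Nothing in the labels says that the arrays of experiment 1 hold separate cultures, so p-values measure a spread that may be technical. Villin directs the recombinase to gut epithelium, and the labels do not say whether an organoid line was clonal.

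Notch receptors are cut upon contact with a ligand on a neighbouring cell, and the released intracellular domain joins the DNA-binding protein RBPJ to switch on targets such as Hes1 and Nrarp. Fringes are glycosyltransferases that add sugars to the receptor and change which ligands it answers to. In the intestinal crypt, Notch signalling is known to hold cells in the stem and absorptive fates, while cells that make Dll1 and Dll4 tend towards secretory fates.

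Upstream sequences are shown for 3 members on which the comparisons turn: Dll1 and Lfng, both among the 3 members lowest in Ascl2 null organoids, and Hes6, the member with the smallest p in experiment 1. Each is the 250 bases before the annotated start, 5′ to 3′ on the gene's strand, from RefSeq's table for GRCm38.p6, in which 8 of the 10 members had an entry; Mfng and Hes1 were not matched. Capitals mark TGGGAA, the core of the RBPJ motif, on either strand in Lfng (chr5:140607091-140607340, plus strand), and the E-box CANNTG, the class of site that basic helix-loop-helix factors bind, in Dll1 (chr17:15376933-15377182, minus strand) and Hes6 (chr1:91414039-91414288, minus strand).
Lfng: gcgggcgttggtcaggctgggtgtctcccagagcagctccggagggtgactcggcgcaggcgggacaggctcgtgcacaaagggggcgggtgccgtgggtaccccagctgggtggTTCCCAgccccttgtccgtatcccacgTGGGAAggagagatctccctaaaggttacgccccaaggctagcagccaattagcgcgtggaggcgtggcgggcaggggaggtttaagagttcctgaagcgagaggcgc
Dll1: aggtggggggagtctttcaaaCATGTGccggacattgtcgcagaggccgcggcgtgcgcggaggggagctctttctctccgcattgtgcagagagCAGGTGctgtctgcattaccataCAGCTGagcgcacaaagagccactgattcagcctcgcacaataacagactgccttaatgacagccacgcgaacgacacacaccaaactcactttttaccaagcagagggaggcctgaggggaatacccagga
Hes6: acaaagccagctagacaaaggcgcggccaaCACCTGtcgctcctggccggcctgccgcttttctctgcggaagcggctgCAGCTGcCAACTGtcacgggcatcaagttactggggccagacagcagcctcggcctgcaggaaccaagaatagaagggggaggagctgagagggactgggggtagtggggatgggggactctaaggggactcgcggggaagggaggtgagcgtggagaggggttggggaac

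The 8 matched members have 10 such windows, since Dll1 and Hes6 have a second one, not shown. For both genes the window shown is the one with more E-boxes, 3 against 1. Of the 10 windows, 1 (Lfng) held TGGGAA on either strand, as did 21.6% of all 32851 upstream windows of the same length. In Lfng the 2 cores began at positions -135 and -108, counted back from the start, and the second overlapped an E-box at position -112. E-boxes were found in 7 of the 10, against 66.2% of all windows, and the form CAGCTG, which is one of the E-boxes, in 5 of the 10, against 13.0% of all windows. The N-box CACNAG, a motif known for Hes1, was in 6 of the 10, against 36.7% of all windows, and for Hes6 it lay in the window not shown. These matches describe letters in a window and not bound sites.

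The tissue label was checked first. All 7 intestinal epithelium markers were well above background on all 8 arrays, while 1 of 4 endothelial, 1 of 6 fibroblast and 3 of 5 leukocyte markers were. The endothelial markers Pecam1 and Cdh5 were not well above background on any array. The Ascl2 probe read -0.31 and 0.12 in experiment 1, -0.72 in the organoids of experiment 2 labelled as over expressing Ascl2 and -0.92 in those that were also Tcf7l2 null, and it was -0.57 in Tcf7l2 null and -1.07 in Ascl2 null organoids, against self-self values of 0.01 and -0.26 (log2 own RNA over control). The brightest of 3 Tcf7l2 probes gave -0.35 in Tcf7l2 null organoids and 0.17 in those with Ascl2, against 0.37 on their experiment's self-self array. The other probes gave -0.10 and -0.19 in Tcf7l2 null organoids and -0.14 and -0.21 in those with Ascl2. On that self-self array they read -0.20 and -0.16. The labels do not say which stretch of Ascl2 the construct carries or which stretch of either gene was deleted, so neither gene's probes can serve as a check of the labels. Groups are named by their labels, on which every direction rests. Between 49.9% and 60.6% of probes were well above background in Cy3 and between 53.4% and 67.1% in Cy5. Precision is limited by how few arrays there are.

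Each array's value below is a log2 ratio, own RNA over control, where 1 means 2-fold, 0 means no difference, and loess normalisation sets most genes near 0. On a self-self array the ratio is Cy5 over Cy3 of 1 RNA. On replicate 2 of experiment 1 the own RNA was in Cy3, so a dye difference enters its ratio with the opposite sign. In the lists of values, Ascl2-overexpressing, Tcf7l2 null and combined (Tcf7l2 null with Ascl2 over expression) organoids are those of experiment 2, Ascl2 null organoids those of experiment 3, and the self-self arrays stand in the order of their experiments, 2 and 3. In RNA from whole organoids, fewer cells of a type and less RNA per cell cannot be told apart.

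Of the receptors, Notch1, a main receptor of the crypt, had 0.51 and 0.53 in experiment 1, -0.04 in Ascl2-overexpressing, 0.24 in Tcf7l2 null, -0.20 in combined and -0.56 in Ascl2 null organoids, against 0.01 and -0.13 on the self-self arrays (mm9 chromosome 2, 26314772 to 26314830). Both arrays of experiment 1 lay above all the others, and the Ascl2 null array was the lowest. A second Notch1 probe gave 0.68 and 0.15 in experiment 1 and -0.13 in Ascl2 null organoids. It gave 0.17 in Ascl2-overexpressing and 0.26 in combined organoids, on the other side of 0 from the first probe. Notch2, the other receptor of the crypt, had 0.13 and 0.60 in experiment 1, 0.54 in Ascl2-overexpressing, 0.71 in Tcf7l2 null, -0.24 in combined and 0.20 in Ascl2 null organoids, against 0.38 and 0.16 on the self-self arrays (chromosome 3, 97953914 to 97953973). Its self-self values fell within the range of the other arrays. A dimmer Notch2 probe stayed between -0.23 and 0.11 on the 6 arrays with 2 RNAs, and the third was not well above background on any array, so Notch2 is uncertain.

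Of the ligands, Dll1 had 0.10 and -0.04 in experiment 1, -0.11 in Ascl2-overexpressing, -0.03 in Tcf7l2 null, -0.38 in combined and -1.90 in Ascl2 null organoids, against -0.08 and -0.65 on the self-self arrays (chromosome 17, 15504623 to 15504682, the mean of 10 spots). Dll1 stood apart on the Ascl2 null array alone, and the next lowest value was that of its experiment's self-self array. Dll4, the ligand that acts beside Dll1 in the crypt, had 0.21 and 0.85 in experiment 1, 0.44 in Ascl2-overexpressing, 0.38 in Tcf7l2 null, 0.06 in combined and -0.53 in Ascl2 null organoids, against -0.04 and 0.35 on the self-self arrays (chromosome 2, 119160779 to 119160838). Ascl2 null organoids were the lowest here as well, and the arrays of experiment 1 lay far apart. Jag1, a ligand of the Jagged class, had -0.43 and -0.68 in experiment 1, 0.57 in Ascl2-overexpressing, -0.16 in Tcf7l2 null, 0.53 in combined and -0.05 in Ascl2 null organoids, against 0.31 and -0.11 on the self-self arrays (chromosome 2, 136907433 to 136907492). It was the member that ran against the others: below 0 on both arrays of experiment 1 and highest in the organoids of experiment 2 labelled as over expressing Ascl2, with or without Tcf7l2. A second Jag1 probe was not well above background on any array.

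Of the fringes, Mfng had 0.52 and 0.51 in experiment 1, -0.40 in Ascl2-overexpressing, 0.20 in Tcf7l2 null, -0.26 in combined and -2.36 in Ascl2 null organoids, against -0.02 and 0.20 on the self-self arrays (chromosome 15, 78586553 to 78586612). The Ascl2 null value was the lowest of any member on any array, and the self-self values lay near 0. In both Ascl2-overexpressing groups of experiment 2 the organoids' own Mfng signal was not well above background, so those ratios give no exact fold. As measured, Mfng was 1.32-fold lower with Ascl2 and 1.20-fold lower in combined organoids, against dsGFP organoids. No detection limit entered these values, so they are not firm minimums. On the self-self array of experiment 2, less the dye term, the standard deviation over all genes was 0.21 (log2). Lfng, which like Mfng adds sugars to Notch, had 0.60 and 0.82 in experiment 1, 0.27 in Ascl2-overexpressing, 0.67 in Tcf7l2 null, -0.23 in combined and -0.90 in Ascl2 null organoids, against 0.22 and 0.47 on the self-self arrays (chromosome 5, 141091224 to 141091283). In combined organoids neither channel of Lfng was well above background, so that value carries no fold. A second, dimmer Lfng probe gave -0.55 in Ascl2 null organoids and 0.09 and 0.61 in experiment 1.

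Of the target genes and Hes6, Hes1, the repressor through which Notch holds back secretory fate, had 1.21 and -0.01 in experiment 1, -0.47 in Ascl2-overexpressing, 0.26 in Tcf7l2 null, -0.64 in combined and -0.81 in Ascl2 null organoids, against -0.83 and -0.49 on the self-self arrays (chromosome 16, 30065983 to 30066278). The self-self values were as low as the lowest conditions, and the dye-swapped arrays of experiment 1 differed by more than 2-fold. Nrarp, a feedback inhibitor of the Notch intracellular domain, had 0.45 and 0.37 in experiment 1, 0.19 in Ascl2-overexpressing, 0.59 in Tcf7l2 null, -0.06 in combined and -0.23 in Ascl2 null organoids, against 0.33 and -0.10 on the self-self arrays (chromosome 2, 25038038 to 25038097). Its values on replicate 1 of experiment 1 and in Tcf7l2 null organoids lay above both self-self values, and that in Ascl2 null organoids below both. Replicate 2 has its dyes the other way round and is not ranked against them. Hes6, a Hes-family member known to oppose Hes1 rather than to act as a Notch target, had 0.50 and 0.95 in experiment 1, -0.06 in Ascl2-overexpressing, 0.39 in Tcf7l2 null, -0.46 in combined and -0.999 in Ascl2 null organoids, against -0.18 and 0.19 on the self-self arrays (chromosome 1, 93308264 to 93308323). A second Hes6 probe was on the same side of 0 on every array with 2 RNAs, at 0.57 and 0.81 in experiment 1 and -0.37 in Ascl2 null organoids, where the self-self array of that experiment read 0.57.

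**Figure D1:**
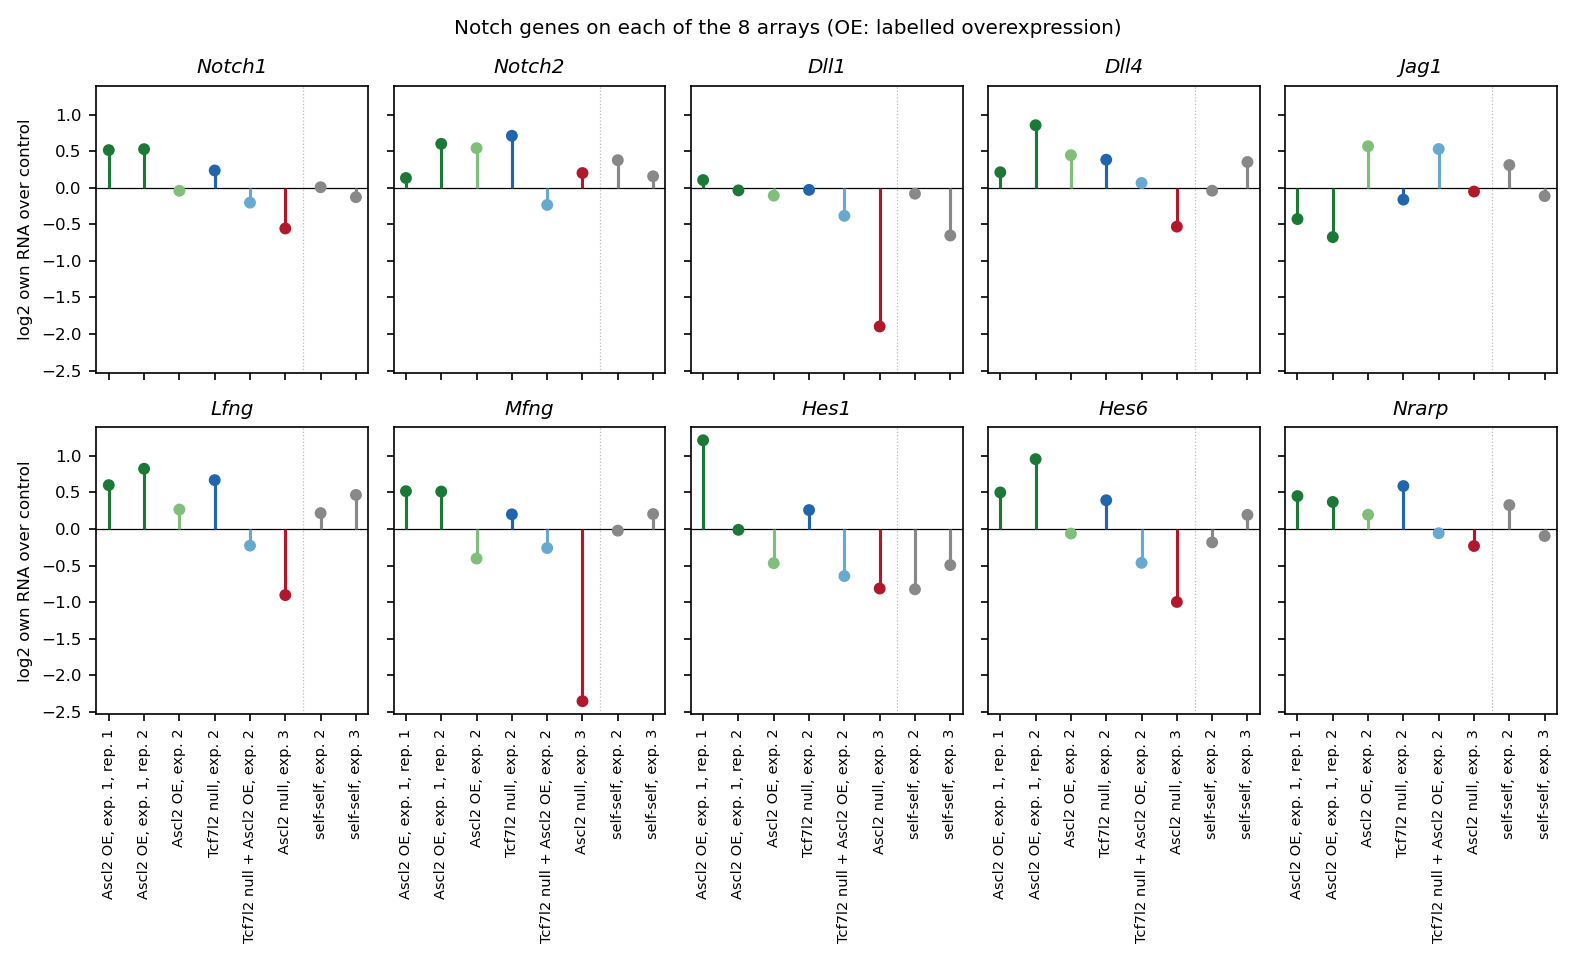
Log2 ratio of own RNA over control (y axis) for each of the 10 Notch genes, 1 point per array, with the 2 self-self arrays (grey) right of the dotted line. Mfng at -2.36 and Dll1 at -1.90 in Ascl2 null organoids reach lowest, and Hes1 reads -0.83 and -0.49 on the self-self arrays.

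Experiment 1 was the one comparison with repeated arrays, and there 9 of the 10 members were above 0 and Jag1 below, beside 49.6% of all genes above 0. With a dye term shared by all 8 arrays, the fitted ratio was 0.73 ± 0.15 for Hes6, 0.71 ± 0.17 for Lfng, 0.52 ± 0.11 for Notch1 and 0.51 ± 0.12 for Mfng (log2, SE, n = 2 arrays), with limma adjusted p-values of 0.0814, 0.121, 0.0945 and 0.108. Jag1 had -0.55 ± 0.14 (limma adjusted p = 0.125). Dll4 had 0.53 ± 0.19 and Nrarp 0.41 ± 0.14, with limma adjusted p-values of 0.250 and 0.231. Hes1, Notch2 and Dll1 had 0.60 ± 0.38, 0.37 ± 0.18 and 0.03 ± 0.20, and their limma adjusted p-values were 0.551, 0.424 and 0.974. The median of the 10 members was 0.52, against 0.00 over all genes, and none reached 2-fold, which 0.647% of all genes did.

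Of the 10 members, 0 passed at a limma adjusted p under 0.05 in experiment 1, where 0.916% of all genes did. At an unadjusted p under 0.05, 7 of 10 members passed, against 15.1% of all genes. The 6 higher ones (Notch1, Dll4, Lfng, Mfng, Hes6 and Nrarp) stand beside 6.65% of all genes, and the 1 lower (Jag1) beside 8.42%. The test rests on few arrays: without the self-self array of experiment 3, 7 members passed the adjusted threshold, as did 13.7% of all genes, and without that of experiment 2 no member and no gene did. Without replicate 1 Lfng was 1.16 and Dll4 1.01, and without replicate 2 Lfng was 0.26 and Dll4 0.06. Without replicate 1 Hes1 was -0.67 and Dll1 -0.41, and without replicate 2 Notch2 was -0.13, each on the other side of 0.

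On the single array of experiment 2 labelled as over expressing Ascl2, the members did not form 1 direction. Fitted ratios were 0.53 for Dll4, 0.52 for Notch2 and 0.46 for Jag1, then 0.15 for Lfng, 0.12 for Nrarp, 0.05 for Hes6, 0.04 for Dll1, -0.01 for Notch1 and -0.44 for Hes1. Mfng, whose own signal was not well above background there, read -0.45, which is not an exact fold. The median was 0.08, with 7 of 10 above 0 beside 51.6% of all genes. With median centring in place of loess it was -0.03, with 4 of 10 above 0. No member reached 2-fold, which 2.10% of all genes did, and with 1 array there is no p-value. In the scanner's own log ratio, which adds no offset to dim signals, Mfng was -1.49. On the self-self array of experiment 2, less the dye term, 7 of 10 members were above 0 too, with a median of 0.07. On that of experiment 3, 5 of 10 were, with a median of 0.03.

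Set against experiment 1, no member passed. The difference, experiment 2 minus experiment 1, was 1.01 ± 0.25 for Jag1 (limma adjusted p = 0.242). Mfng had a fitted -0.96 ± 0.22 (limma adjusted p = 0.198), but its own signal was not well above background on the array of experiment 2, so that value is not an exact difference. Hes6 had -0.68 ± 0.27 and Notch1 -0.53 ± 0.21, with limma adjusted p-values of 0.571 and 0.557, while Hes1 had -1.04 ± 0.70 (limma adjusted p = 0.833). Of the 10 members 0 passed the adjusted threshold, beside 0.773% of all genes, and 4 (Mfng, Jag1, Notch1 and Hes6) had an unadjusted p under 0.05, beside 8.51% of all genes. The 2 experiments also differ in their control, VillinCreERT2 in one and dsGFP in the other, so control and experiment cannot be told apart.

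In Tcf7l2 null organoids 9 of the 10 members were above 0, beside 50.4% of all genes, with a median of 0.37. Notch2 had 0.69, Lfng 0.55, Nrarp 0.51, Hes6 0.50 and Dll4 0.47. The remaining fitted ratios were 0.28 for Hes1, 0.27 for Notch1, 0.15 for Mfng, 0.12 for Dll1 and -0.27 for Jag1. No member reached 2-fold, which 0.880% of all genes did. On their experiment's self-self array, less the dye term, 7 of the 10 members were above 0, with a median of 0.07, and Notch2 read 0.48 and Nrarp 0.33. In the scanner's own log ratio Lfng was 1.17 in Tcf7l2 null organoids.

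In Tcf7l2 null organoids with Ascl2 over expression the side turned: 2 of the 10 members were above 0, beside 50.9% of all genes, with a median of -0.24. Over the 8 members well above background in both channels, 2 were above 0 and the median was -0.20. Hes1 had -0.62, Hes6 -0.35, Notch2 -0.25, Dll1 -0.24, Notch1 -0.17 and Nrarp -0.14, and Dll4 and Jag1 were above 0 at 0.15 and 0.42. Without either one of the arrays of experiment 1, which changes the dye term, Hes1 was 0.02. Lfng gives no fold here, and Mfng gives no exact fold. No member reached 2-fold, which 3.33% of all genes did. In the scanner's own log ratio Mfng was -1.29.

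Set directly against Tcf7l2 null organoids, the combined organoids were lower in 7 of the 8 members well above background on both arrays, with a median difference of -0.54, where 47.3% of all genes were lower. The differences were -0.95 for Notch2, -0.90 for Hes1, -0.86 for Hes6 and -0.65 for Nrarp, and Jag1 was higher, by 0.69. Hes1 itself read -1.07 on that experiment's self-self array, less the dye term. Notch1, Dll1 and Dll4 differed by -0.44, -0.35 and -0.32. Set against the Ascl2-overexpressing organoids of the same experiment, combined organoids were lower in 8 of the same 8 members, with a median difference of -0.26, beside 49.6% of all genes. Notch2 differed by -0.78, Hes6 by -0.40 and Dll4 by -0.38. A dimmer Notch2 probe read -0.23 in combined, -0.21 in Tcf7l2 null and -0.18 in Ascl2-overexpressing organoids, so both Notch2 differences are uncertain. No difference is given for Lfng or Mfng, whose signals in combined organoids were not well above background. All 3 conditions used the same control, and each difference sets 1 array against 1 array with no replicate check. No member reached 2-fold in either difference, which 7.69% of all genes did against Tcf7l2 null organoids and 2.09% against Ascl2-overexpressing ones.

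Ascl2 null organoids had the lowest median of the 10 Notch genes among the 5 comparisons: 1 of 10 members was above 0, beside 49.7% of all genes, with a median of -0.66. Fitted ratios were -2.40 for Mfng, -1.75 for Dll1 and -1.02 for Lfng, the 3 members at or beyond 2-fold, where 1.57% of all genes were lower and 3.90% passed in either direction. Hes6 (-0.89) and Hes1 (-0.79) lay just short of 2-fold, followed by Notch1 (-0.52), Dll4 (-0.45), Nrarp (-0.31) and Jag1 (-0.16). Notch2 alone was above 0, at 0.18. On their experiment's self-self array, less the dye term, Mfng was 0.21, Lfng 0.47, Dll1 -0.67, Hes6 0.41 and Hes1 -0.63. Hes1 was -0.15 without either one of the arrays of experiment 1 and -0.32 with a dye term of its own for each experiment. With that dye term per experiment Dll1 was -1.24 and Mfng -2.56, while Lfng reached 2-fold in 11 of 16 alternatives and ranged between -1.78 and -0.71.

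**Figure D2:**
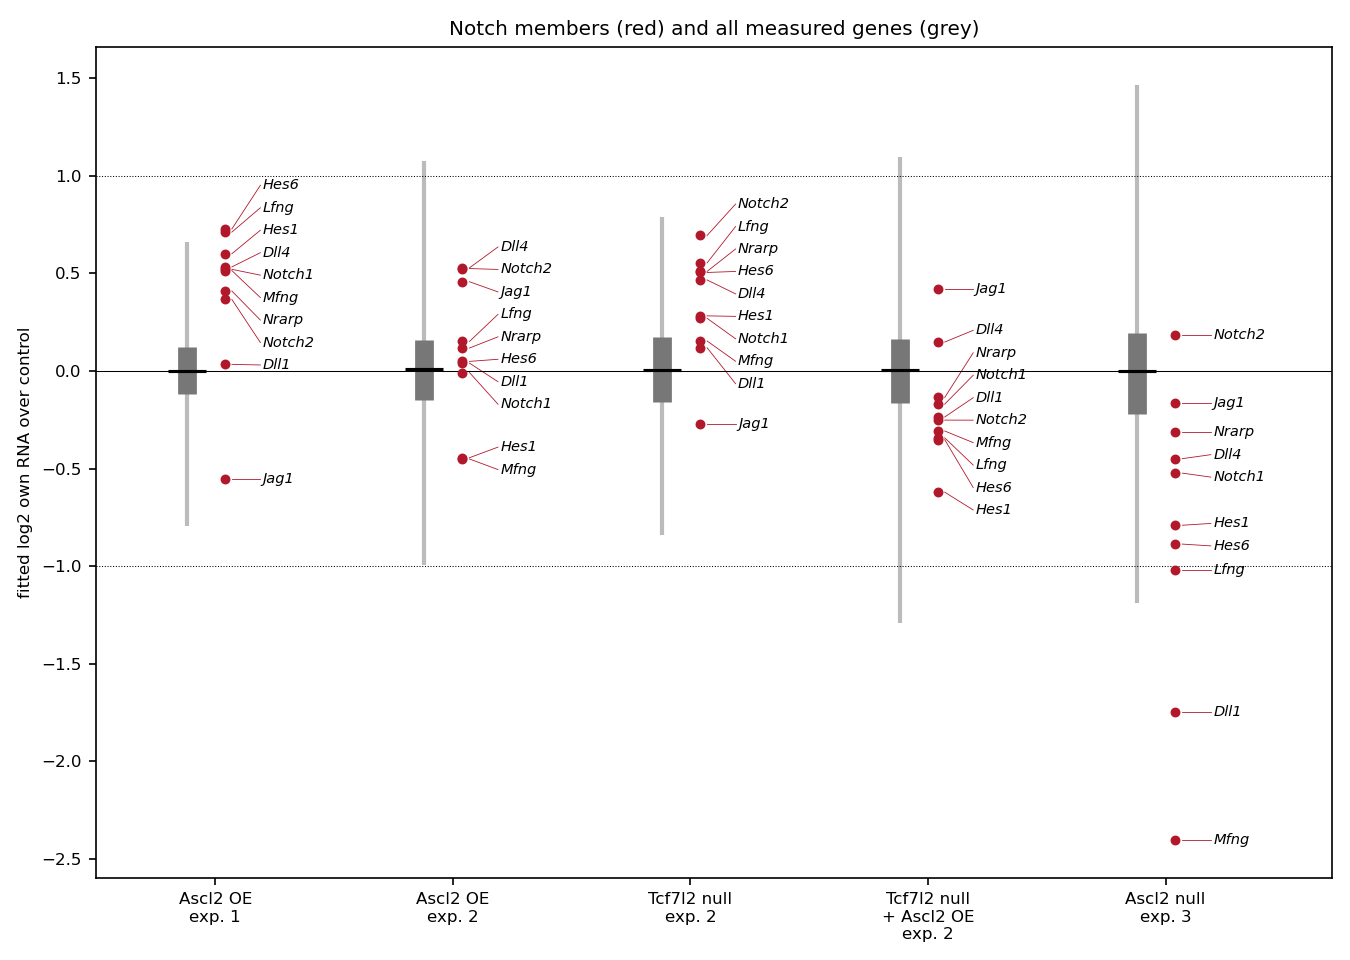
Fitted log2 own RNA over control (y axis) in 5 comparisons, with 1 red point per Notch gene and grey bars for all measured genes (thick: 25th to 75th percentile, thin: 1st to 99th, black line: median, dotted lines: 2-fold). In Ascl2 null organoids Mfng (-2.40) and Dll1 (-1.75) lie below the 1st percentile of -1.19, and members lie mostly above 0 in experiment 1 and Tcf7l2 null organoids.

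Ligands and fringes were then set beside the target genes Hes1 and Nrarp together with Hes6. The fitted median of Dll1, Dll4, Jag1, Lfng and Mfng was 0.51 in experiment 1, where that of Hes1, Hes6 and Nrarp was 0.60. The pair of medians was 0.15 and 0.05 in the Ascl2-overexpressing organoids of experiment 2, 0.15 and 0.50 in Tcf7l2 null organoids, -0.24 and -0.35 in combined organoids, and -1.02 and -0.79 in Ascl2 null organoids, ligands and fringes first each time. Both medians lay on the same side of 0 in all 5 comparisons. The second was Hes6's own value in 3 of them, and the mean of Hes1 and Nrarp alone was on the side of the ligands and fringes in 4 of 5: it was 0.50, -0.16, 0.40, -0.38 and -0.55 in the same order. In combined organoids, where the fringes were not well above background, the ligands alone had a median of 0.15. On the self-self arrays, less the dye term, they lay on opposite sides, at 0.09 and -0.10 in experiment 2 and 0.21 and -0.23 in experiment 3. There 1 member, Hes1, was at or beyond 2-fold in experiment 2, where 0.0519% of all genes were, and 0 in experiment 3, where 0.989% were. The medians hide a split between ligands and fringes: in Ascl2 null organoids the ligands had a median of -0.45 and the fringes a mean of -1.71, and in experiment 1 they had 0.03 and 0.61. Differences between the medians, at most 0.35 in size over the 5 comparisons, were no larger than the 0.44 seen on the self-self array of experiment 3.

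**Figure D3:**
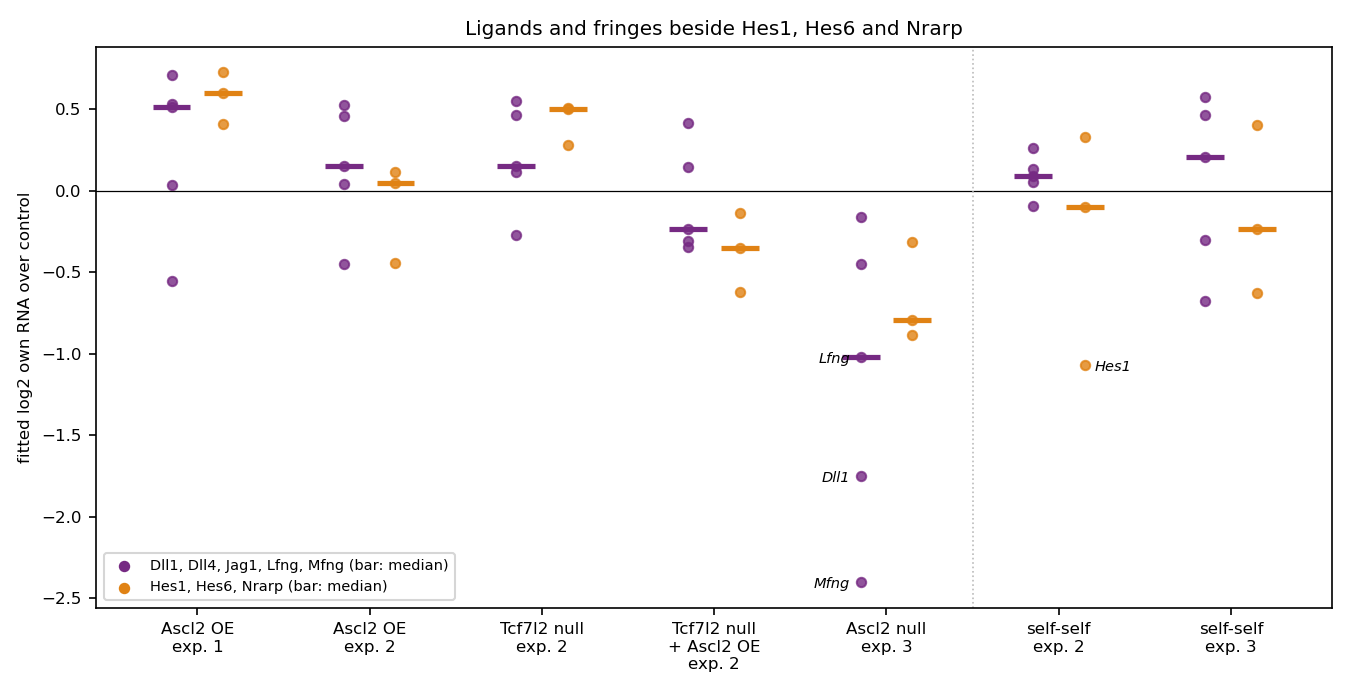
Fitted log2 own RNA over control (y axis) of the ligands and fringes (purple) and of Hes1, Hes6 and Nrarp (orange) in 5 comparisons, with the self-self arrays, less the dye term, right of the dotted line; bars are medians and genes at or beyond 2-fold are named. In Ascl2 null organoids the medians are -1.02 and -0.79, and on the self-self array of experiment 2 Hes1 alone reads -1.07.

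Over the 6 arrays with 2 RNAs, Mfng spanned the widest range of any member, 2.87 on the log2 scale, followed by Hes1 (2.03) and Dll1 (2.002). Likeness was measured as the Euclidean distance over those 6 dye-corrected ratios, among all measured genes. The nearest genes to Mfng were Insm1, a zinc-finger transcription factor of endocrine cells, at 0.52 and Tecpr1, a gene of the autophagy machinery, at 0.61. Insm1 had -2.39 in Ascl2 null organoids, beside -2.40 for Mfng. The nearest to Dll1 were Postn, which encodes the matrix protein periostin, at 0.42 and Gm5458 at 0.50, and the nearest to Hes1 were LOC100044968 at 0.66 and Rps28, a ribosomal protein gene, at 0.67.

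Beyond the 10 members, 42 of 44 other genes of the Notch pathway were measured. As a list they lay near 0, with a median of 0.04 in experiment 1, 0.05 in Ascl2-overexpressing, 0.03 in Tcf7l2 null, 0.05 in combined and -0.08 in Ascl2 null organoids. In experiment 1 only Hes2, a Hes-family repressor, passed, at -0.83 ± 0.13 (limma adjusted p = 0.0495), and Hes5, a Notch target, had 0.81 ± 0.13 (limma adjusted p = 0.0562). Without the self-self array of experiment 2 Hes2 no longer passed. Hes5 was -1.06 in combined organoids and -0.46 with Ascl2 alone. Jag2, a Jagged ligand, was -1.02 in the Ascl2-overexpressing organoids of experiment 2, -0.997 in combined and -0.85 in Ascl2 null organoids, but 0.00 in experiment 1. In Ascl2 null organoids the receptor Notch3 was -1.07 and Poglut1, an enzyme that adds glucose to Notch, was 1.08. Other pathway genes lay closer to 0 there: Rbpj was -0.34 and the ligand ubiquitin ligase Mib1 -0.42.

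The genes that specify secretory cells, which Notch restrains, were low beside the Notch genes in Ascl2 null organoids. Of 12 measured genes (of 13 listed) 3 were above 0, beside 49.7% of all genes, and 4 were at or beyond 2-fold lower, beside 1.57%: the endocrine factors Pax4 (-3.44), Insm1 (-2.39) and Neurog3 (-2.20), and Foxa2 (-1.68), a forkhead factor. The median was -0.77. On the self-self array of experiment 3, less the dye term, 4 of the 12 were above 0, so the count above 0 alone hardly differs. There the median was -0.21 and 0 genes were at or beyond 2-fold lower. In Ascl2 null organoids the difference thus lies in size. Atoh1, the factor that Hes1 represses to hold back secretory fate, was -0.57 in Ascl2 null organoids. In combined organoids Sox9 (-1.69), a factor of crypt progenitors and Paneth cells, Pax4 (-1.52) and Sox4 (-1.19) were at or beyond 2-fold lower, as 2.14% of all genes were. In the Ascl2-overexpressing organoids of experiment 2 Pax4 alone was, at -1.37, beside 0.975% of all genes. On the self-self array of experiment 2, less the dye term, Sox4 itself read -0.81, while Sox9 and Pax4 read 0.10 and 0.16. Sox4 read 0.93 on that of experiment 3, so its value in combined organoids is uncertain. In experiment 1, 10 of the 12 were above 0, beside 49.6% of all genes, with a median of 0.30, and 0 passed the adjusted threshold. The list had a median of 0.12 in Tcf7l2 null organoids, with 8 of 12 above 0, beside 50.4% of all genes.

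Markers of mature enteroendocrine cells were set beside these values. All 6 (Chga, Chgb, Gcg, Gip, Sst and Cck) were at or beyond 2-fold higher in Ascl2 null organoids, between 1.30 and 5.39, beside 2.33% of all genes. They were between -0.15 and 3.84 in the Ascl2-overexpressing organoids of experiment 2 and between 0.40 and 4.81 in combined organoids, with 4 of 6 at or beyond 2-fold higher in each, beside 1.13% and 1.20% of all genes. In Tcf7l2 null organoids they lay between -0.41 and 0.82. In experiment 1 all 6 were below 0, between -1.74 and -0.40, and 4 of the 6 fell at a limma adjusted p under 0.05, as 0.559% of all genes did, and none of them without the self-self array of experiment 2. On the self-self arrays they lay between -0.34 and 0.36. Their part in the values of the Notch genes was not tested.

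**Figure D4:**
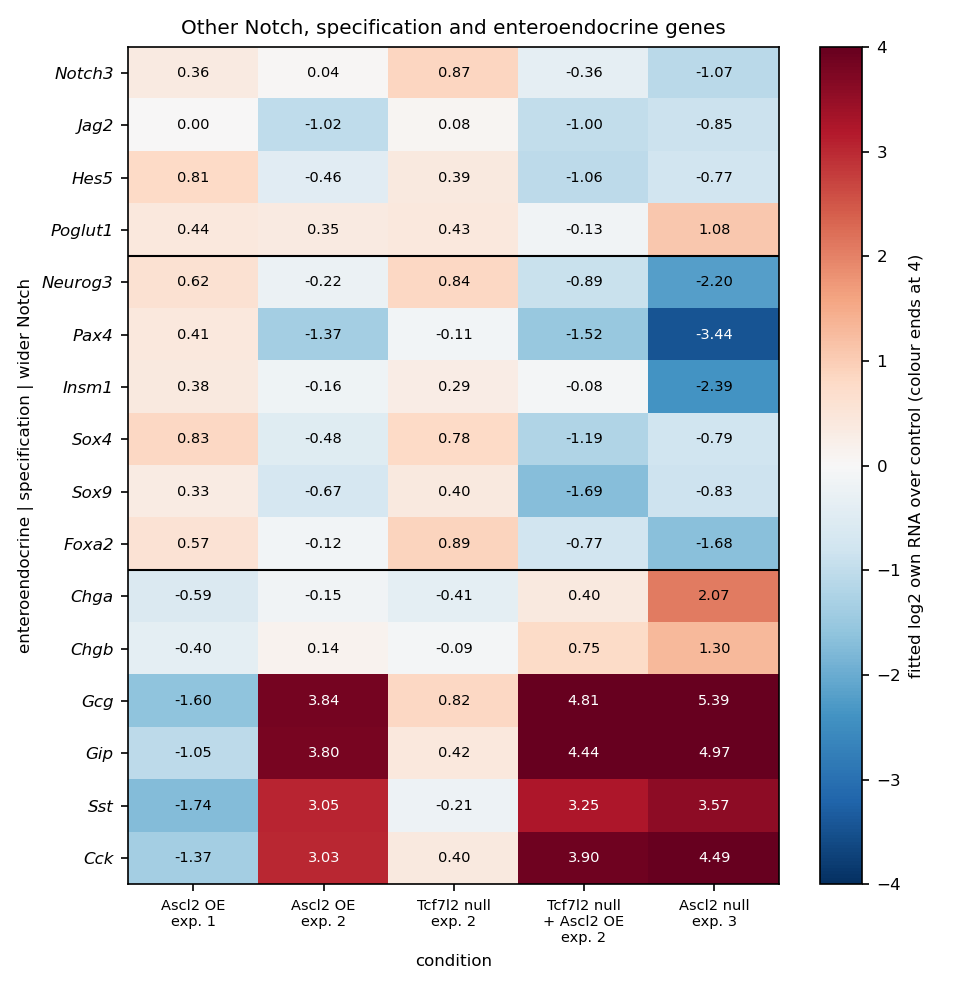
Fitted log2 own RNA over control, printed and coloured, in 5 comparisons (columns) for other Notch pathway genes and secretory specification genes at or beyond 2-fold in any of them and for all 6 enteroendocrine markers (rows, groups parted by black lines). In Ascl2 null organoids Pax4 (-3.44), Insm1 (-2.39) and Neurog3 (-2.20) are low where Gcg (5.39) and Gip (4.97) are high.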

How the data were processed

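Per the file headers, the authors' scanner files hold spot intensity values of both colours from Agilent Feature Extraction 10.5.1.1, and a log10 ratio of Cy5 over Cy3 that the same software had already corrected. The value table the authors deposited holds log2 ratios, which for experiments 2 and 3 equal the scanner ratio in scale and direction (slope 1); for experiment 1 they followed it with r of 0.86 and, with replicate 2 turned, -0.85, and no source used here says how those 2 columns were made. Column medians of that table ran from -0.01 to 0.03.

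Starting from median spot and local background intensity, the signals were corrected by normexp (offset 50), normalised by loess within each array, and fitted with limma 3.58.1 in R 4.3.3: a dye term plus 1 effect per condition and experiment over all 8 arrays, which leaves 2 residual degrees of freedom. Mean spot intensity, which 6 of the files lack, was not used. Spots whose local background was over 3 times the array's median were left out. On replicate 2 of experiment 1 there were 77 such spots, reaching a Cy3 background of 407956 against a median of 34, and keeping them raised normexp's Cy3 noise estimate to 4052, against 3.50 without them. This exclusion was chosen after seeing the data, and both it and its threshold have alternatives below.

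Of 41174 probes, 27605 had a channel well above background on at least 2 of 8 arrays. RefSeq accessions named 26918 probes, and 14256 kept the array's own name. The brightest probe stood for each gene, and mm9 coordinates come from the array's annotation, without exon or UTR positions. The 10 members have 16 probes, of which 14 passed the filter. No spot was saturated. Two-sided p-values were adjusted over all genes by Benjamini-Hochberg, with a threshold of 0.05. Self-self values "less the dye term" use a dye term estimated without that array. The whole fit was tested on simulated data.

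Named were every member, genes of the wider Notch and secretory specification lists at or beyond 2-fold in any comparison, Ascl2 and Tcf7l2, and for the 3 members of widest range the 2 nearest genes; Rbpj, Mib1, Atoh1, Hes2 and Hes5 in experiment 1, and the marker genes named singly, were added after their values were seen. Members and lists were chosen with earlier results of these data known. In all, 19 alternatives were tried.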

Additional observations from a re-analysis of the deposited data

Results flagged for a closer look

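Genes are given here because both dye-corrected arrays of experiment 1 lay on one side of 0 and the Ascl2-overexpressing array of experiment 2 on the other. For Notch1 the difference, experiment 2 minus experiment 1, was -0.53 on the log2 scale, from -0.01 in experiment 2 against 0.55 and 0.49 in experiment 1. The side of that Notch1 value in experiment 2 is not settled. It was 0.003 with an offset of 16 and 0.006 with the mean of the gene's probes. Jag1 differed by 1.01, from 0.46 in experiment 2 against -0.54 and -0.57 in experiment 1. Mfng, whose own signal in experiment 2 was not well above background, differed by -0.96, from -0.45 in experiment 2 against 0.47 and 0.56 in experiment 1. The difference itself was tested with limma, and none of the 3 passed, at adjusted p-values of 0.557 for Notch1, 0.242 for Jag1 and 0.198 for Mfng. With 1 array in experiment 2 this sets that array against technical spread, and the controls of the experiments differ as well.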

How the results depend on the processing

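Genes passing in experiment 1 numbered 177, none of them a member. They numbered 2 with the scanner's log ratio, 0 with median centring, 16 with the authors' deposited values, 353 with an offset of 16, 12 with an Ascl2 effect shared by both experiments, 539 with no dye term, 875 with experiment 1 alone, 0 without the self-self array of experiment 2, 2629 without that of experiment 3, 0 with high-background spots kept, 112 with a background limit of 10 times the median, 3 without replicate 1 and 3 without replicate 2. For the difference between experiments, 149 genes passed, against 0 with median centring, 245 with an offset of 16, 315 with no dye term, 8 without the self-self array of experiment 2 and 849 without that of experiment 3, 81 with high-background spots kept, and 26 to 154 when a replicate of experiment 1 was left out. The cause was not tested.

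Members at or beyond 2-fold numbered 0 in Ascl2-overexpressing organoids of experiment 2 but 1 with the scanner's log ratio and 1 with the authors' deposited values (Mfng). In Tcf7l2 null organoids they numbered 0 but 1 with each of these (Lfng) and 1 with a dye term per experiment (Hes1), and in combined organoids 0 but 2 (Lfng and Mfng) and 1 (Mfng). In Ascl2 null organoids they numbered 3 but 5 with median centring, which added Hes1 and Hes6. They numbered 4 with the scanner's log ratio and with the authors' deposited values, in both of which Notch1 reached -1.12, and 4 with a dye term per experiment (Hes6 at -1.19) or without either replicate of experiment 1 (Hes6 at -1.003). They numbered 2 under 4 alternatives, without the self-self array of experiment 2 they were Dll1, Mfng and Hes1 (-1.06), and Dll1 and Mfng passed 2-fold under 16 of 16 alternatives. The share of all genes at or beyond 2-fold was not counted under the alternatives, so these member counts cannot be set against it. The members' median kept its side of 0 under every alternative in experiment 1 (0.23 to 0.66), Tcf7l2 null (0.28 to 0.55), combined (-0.38 to -0.16) and Ascl2 null organoids (-0.996 to -0.55), and in Ascl2-overexpressing organoids of experiment 2 it was -0.03 with median centring. Members that passed in experiment 1 under an alternative were Mfng with an offset of 16, Notch1 and Hes6 with no dye term, Lfng and Hes6 with experiment 1 alone, and 7 without the self-self array of experiment 3. In experiment 1 Mfng was -0.04 with the authors' deposited values. With a replicate left out, Notch2 ranged between -0.13 and 0.87, Dll1 between -0.41 and 0.47, Dll4 between 0.06 and 1.01, Lfng between 0.26 and 1.16 and Hes1 between -0.67 and 1.87 in experiment 1. The same changes gave Hes1 0.19 in Ascl2-overexpressing organoids of experiment 2, 0.92 in Tcf7l2 null, 0.02 in combined and -0.15 in Ascl2 null organoids, while Lfng was -0.08 in Ascl2-overexpressing organoids of experiment 2, Dll4 -0.09 in combined and Notch2 -0.07 in Ascl2 null organoids. Ligands with fringes and the group of Hes1, Hes6 and Nrarp had medians on the same side of 0 in 5 of 5 comparisons, and in 4 with the authors' deposited values, the mean of a gene's probes, no dye term or Hes6 left out. Own and control RNA were already paired within each array by the ratio. No further pairing between conditions was possible, since they share fewer than 2 replicate numbers. Each condition but that of experiment 1 had a single array.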

Other observations

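Other cell type markers differed between the comparisons as follows, each as a list median of fitted log2 ratios. The 3 crypt base columnar stem cell markers (Lgr5, Olfm4 and Smoc2) had 0.80 in experiment 1, -2.05 in the Ascl2-overexpressing organoids of experiment 2, 0.60 in Tcf7l2 null, -2.30 in combined and -0.90 in Ascl2 null organoids, and 1 of them reached -1.41 on the self-self array of experiment 3. The 2 measured Paneth markers had 0.24, -1.89, -0.36, -2.06 and 0.37 in the same order, and the 2 tuft markers -0.18, 0.78, -0.23, 1.14 and 0.52. The 4 enterocyte markers had -0.66, -0.48, -0.56, 0.19 and 1.06, and the 4 goblet markers -0.08, 0.11, -0.13, 0.15 and 0.03. The 7 epithelial markers had -0.01, 0.32, 0.20, -0.02 and -0.03. Medians near 0 hide single markers that moved further. The epithelial markers ranged between -0.46 and 1.32 in the Ascl2-overexpressing organoids of experiment 2 and between -0.38 and 1.48 in Tcf7l2 null organoids. In Ascl2 null organoids they ranged between -1.18 and 0.66, and the goblet markers between -0.95 and 1.59.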
